A study of Mus musculus with 4 samples.

Results

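The nuclear-coded genes of oxidative phosphorylation were followed across the cell classes of the aged mouse hypothalamus. Members were all genes whose symbol starts with Nduf, Uqcr, Atp5, Cox4, Cox5, Cox6, Cox7 or Cox8 and that had 10 or more unique molecular identifiers (UMIs, counts of single captured RNA molecules) summed over the 2 control-labelled samples. Of the 90 symbols with these prefixes, 85 qualified, out of 32285 genes in the files. They comprised 37 subunits and 8 assembly factors of complex I, 8 subunits of complex III, 15 of complex IV and 17 of ATP synthase. RNA of single nuclei was sequenced from the whole hypothalamus, stored frozen, of mice about 18 months old, and the labels name no strain or allele. The study set 2 samples labelled Control against 2 labelled Transplanted, for a graft of hypothalamus stem cells made from human pluripotent cells. The titles of Control replicate 1 and of Transplanted replicate 1 each join the codes of 2 animals, and the labels do not say how these were combined.

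The transplanted-labelled files held the same nuclei as the control-labelled files, so the members could not be compared between treatments. Control replicate 1 shared 3997 of its 4008 barcodes with Transplanted replicate 1, and Control replicate 2 shared 2144 of its 2150 with Transplanted replicate 2, while other pairs of samples shared 4. For the members, the squared differences between the shared pairs were 0.176 and 0.186 times the sampling noise, so each pair differed by less than the sampling noise and was counted as 1 sample. The analysis therefore rests on 2 distinct libraries, called library A (Control replicate 1) and library B (Control replicate 2). Which of the labels, Control or Transplanted, these nuclei belong to cannot be told apart. The titles carry different codes for A (C1 and C2) and B (C4), which read as codes of separate animals. With a library term in the fits below, p-values measure how far class differences disagree between these 2 libraries. They do not measure the general difference between the libraries. The spread was estimated over all classes together, with information shared between genes.

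Oxidative phosphorylation makes ATP in mitochondria. Complexes I, III and IV pass electrons from NADH to oxygen and pump protons across the inner membrane, and ATP synthase lets the protons flow back to drive ATP formation. Most subunits are coded in the nucleus and a small set of core subunits in mitochondrial DNA, so assembly needs both genomes and dedicated assembly factors. In brain, neurons are known for a heavy reliance on this pathway, and astrocytes for strong glycolysis beside it. In nuclear RNA, the counts reflect transcripts in the nucleus, many of them unspliced, and not the cytoplasmic messenger pool.

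Library A held 4008 nuclei with 8779880 UMIs (median 1813 per nucleus), and library B held 2150 nuclei with 4924563 UMIs (median 2049). Members took 25348 and 16085 of these UMIs, which is 2887 and 3266 as CPM, the depth-scaled count in which a gene's UMIs are divided by all UMIs of the library or class. Mitochondrial-coded RNA was 0.0119% and 0.0176% of UMIs. Nuclei were clustered without the member genes, and clusters were named from marker genes. The named classes were neurons (2933 nuclei of A, 1429 of B), astrocytes (320 and 200), oligodendrocytes (370 and 285), oligodendrocyte precursors (134 and 72) and microglia (66 and 47). A cluster led by Col23a1, Fndc3c1, Pdzrn3 and Scn7a (113 and 44 nuclei) had too few markers of any fixed list and is called the Col23a1 cluster. A cluster of 34 and 14 nuclei with both oligodendrocyte and neuron markers was set apart from the oligodendrocytes. Neurons carried far more RNA per nucleus, with a median of 2242 and 2608 UMIs, against 763.5 and 800.5 in astrocytes and 669 and 686 in oligodendrocytes. The doublet caller marked 30 of 6158 nuclei (0.487%), too few to be relied on, so doublets may remain in every class.

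Promoters of this pathway are known for sites of the activators NRF1, ETS-family factors and YY1, and their letters were counted in 300-base windows (250 bases before to 50 after the start) from RefSeq, build GRCm38.p6, for the 72 members with an entry. The core NRF1 motif, read on both strands like the others, was in 17 of the 72 member promoters (23.6%) against 5.19% of all 27025 genes in that table. The ETS motif CCGGAAG was in 17 (23.6%) against 9.93%, and the YY1 motif AANATGGC was in 19 (26.4%) against 6.96%. The core promoter letters TATAAA were less frequent among members, in 7 (9.72%) against 15.7%. A match describes these letters and shows no binding. The stretches below are upstream of the start and written 5′ to 3′ on the gene's strand. They come from 5 members with class calls described further on, and not all of these calls held in every setting. Capitals mark the NRF1 letters in Ndufaf4 and Atp5c1, the ETS letters in Ndufs3, both in Atp5h, and the YY1 letters in Ndufa7. They lie at chr4:24897945-24898004 (plus strand) for Ndufaf4, chr2:90904722-90904773 (minus) for Ndufs3, chr17:33824602-33824644 (plus) for Ndufa7, chr11:115419926-115420065 (minus) for Atp5h and chr2:10080433-10080474 (minus) for Atp5c1.
Ndufaf4: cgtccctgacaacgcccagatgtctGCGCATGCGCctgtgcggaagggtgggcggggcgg
Ndufs3: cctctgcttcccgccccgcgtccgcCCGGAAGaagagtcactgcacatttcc
Ndufa7: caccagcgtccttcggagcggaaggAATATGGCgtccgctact
Atp5h: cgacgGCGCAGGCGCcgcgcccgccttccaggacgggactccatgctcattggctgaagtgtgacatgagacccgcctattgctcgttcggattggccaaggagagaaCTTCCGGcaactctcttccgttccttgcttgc
Atp5c1: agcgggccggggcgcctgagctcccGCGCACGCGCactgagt

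By role, the NRF1 letters were in 6 of 15 ATP synthase promoters and in 1 of 12 complex IV promoters, and the YY1 letters were in 12 of 33 complex I subunit promoters and in 1 of 12 complex IV promoters. These counts are small, and no difference between roles was tested.

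All parts of the pathway were detected. In libraries A and B, complex I subunits gave 43.2% and 40.9% of member UMIs, ATP synthase 21.1% and 23.7%, complex IV 19.8% and 19.4%, complex I assembly factors 8.75% and 7.59%, and complex III 7.09% and 8.39%. The median member had 402 UMIs over both libraries. The most counted were Ndufs1, the large iron-sulfur subunit of complex I, with 1532 UMIs from A and 593 from B, and Ndufs4, an accessory subunit of its matrix arm, with 742 and 509. UMI totals rank detection, not expression. Member genes were short, with a median length of 7.28 kb against 24.4 kb for all genes with 10 or more UMIs. Over the 85 members, the rank correlation of UMIs with gene length was 0.28 and with exon length 0.37, given as a description across genes that share both libraries. In the GENCODE M21 annotation, 30 members overlapped another gene on either strand, 6 of them on the same strand. How reads of overlapping or near-identical genes were counted is not stated in the labels.

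Tissue-restricted isoforms of complex IV were near the detection limit. Cox4i2, the hypoxia-linked partner of Cox4i1, had 3 UMIs, all from library A, and Cox7a1, a muscle isoform, had 5, again all from A. Cox8b (muscle) and Cox8c (testis) had no UMI in the 2 libraries, and Ndufa4l2 had 3 in library B only. A count of 0 allows a level of up to 0.342 CPM (library A) or 0.618 CPM (library B), taken as 3 counts and covering counting error only. Just inside the minimum were Cox6b2, a testis isoform, with 7 UMIs in each library, and Cox6a2, a muscle isoform, with 10 and 8. The ubiquitous forms were well above these, with 1100 UMIs for Cox4i1, 615 for Cox6b1, 678 for Cox7a2, 273 for Cox7a2l, 792 for Cox8a and 203 for Cox6a1 over both libraries. Cox7b2, described as testis-restricted, had 113 UMIs, 56 and 37 of them in neurons of libraries A and B. Ndufb1-ps, annotated as a bidirectional promoter transcript and overlapping Cpsf2 on the opposite strand, had 334.

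Among the 6 classes compared, the members' mean share of RNA was highest in astrocytes and lowest in neurons. The summed level was 3964 and 5068 CPM in astrocytes of libraries A and B, 3665 and 4344 in oligodendrocytes, 3104 and 3551 in the Col23a1 cluster, 3001 and 4143 in microglia, 2958 and 3462 in oligodendrocyte precursors and 2811 and 3135 in neurons. Both libraries of astrocytes and of oligodendrocytes lay above both libraries of neurons. Precursors, microglia and the Col23a1 cluster overlapped neighbouring classes. A list of RNAs that can leak from neurons and blood (Hcrt, Pmch, Avp, Oxt and 3 haemoglobin genes) summed to 134 and 240 CPM in astrocytes and 157 and 255 in oligodendrocytes, against 182 and 168 in neurons. The part of such free RNA in the members' class levels was not tested. Counted per nucleus, neurons held the most of the 6 classes, with 7.31 and 8.995 member UMIs against 4.06 and 4.43 in an astrocyte and 2.72 and 3.28 in an oligodendrocyte. After every nucleus was thinned to 500 UMIs, neurons held 1.59 and 1.65 member UMIs, astrocytes 2.23 and 2.56, and oligodendrocytes 1.98 and 2.34.

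**Figure D1:**
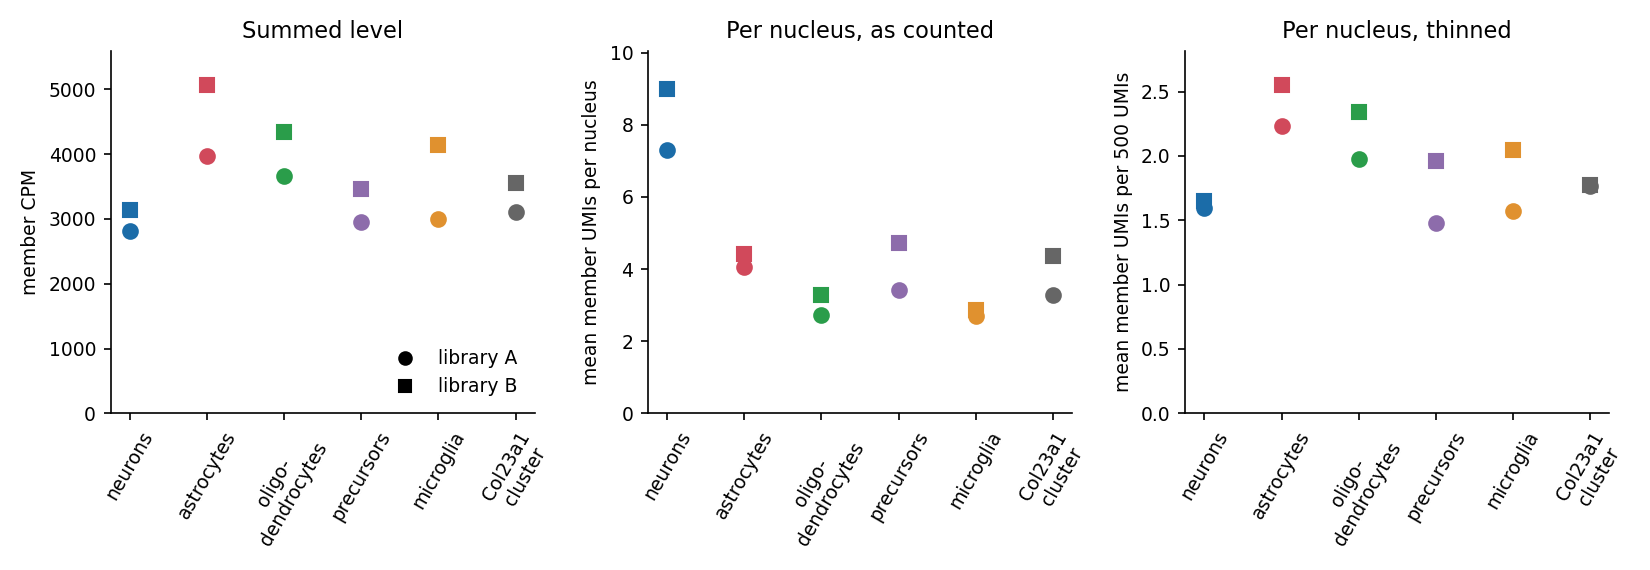
Summed level of the 85 members in CPM (left), mean member UMIs per nucleus as counted (middle) and after thinning each nucleus to 500 UMIs (right), for 6 classes of nuclei; circles are library A and squares library B. Neurons are lowest by CPM, at 2811 and 3135, and highest per nucleus, at 7.31 and 8.995 UMIs.

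The members' share of RNA moved with the number of UMIs in the nucleus. In neurons of library A, member CPM went from 4643 in nuclei with at least 500 and under 750 UMIs to 3274 in those with 1500 to under 2500 and 2202 in those with 4000 or more. In library B, the corresponding neurons had 4056, 3628 and 2629 CPM. Within the lowest bin of library A, neurons at 4643 lay between astrocytes at 5080 and oligodendrocytes at 4145. Within the same bin of library B, neurons (30 nuclei) had 4056, astrocytes 6240 and oligodendrocytes 5116. Restricted to nuclei with 500 to 1500 UMIs, the levels were 4054 and 4188 CPM in neurons, 4523 and 5045 in astrocytes, and 3733 and 4474 in oligodendrocytes. Neurons were still the deeper class there, with a median of 1126 and 1195 UMIs against 742 and 788.5 in astrocytes and 666 and 679 in oligodendrocytes. In this window both astrocyte libraries stayed above both neuron libraries, while oligodendrocytes and neurons overlapped. The window also held a different mix of neuron clusters. The cluster led by Trh, described below, had a median of 1502.5 UMIs, against 1665.5 to 3192 in the other neuron clusters. Depth and neuron cluster thus changed together, and their parts were not tested.

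**Figure D2:**
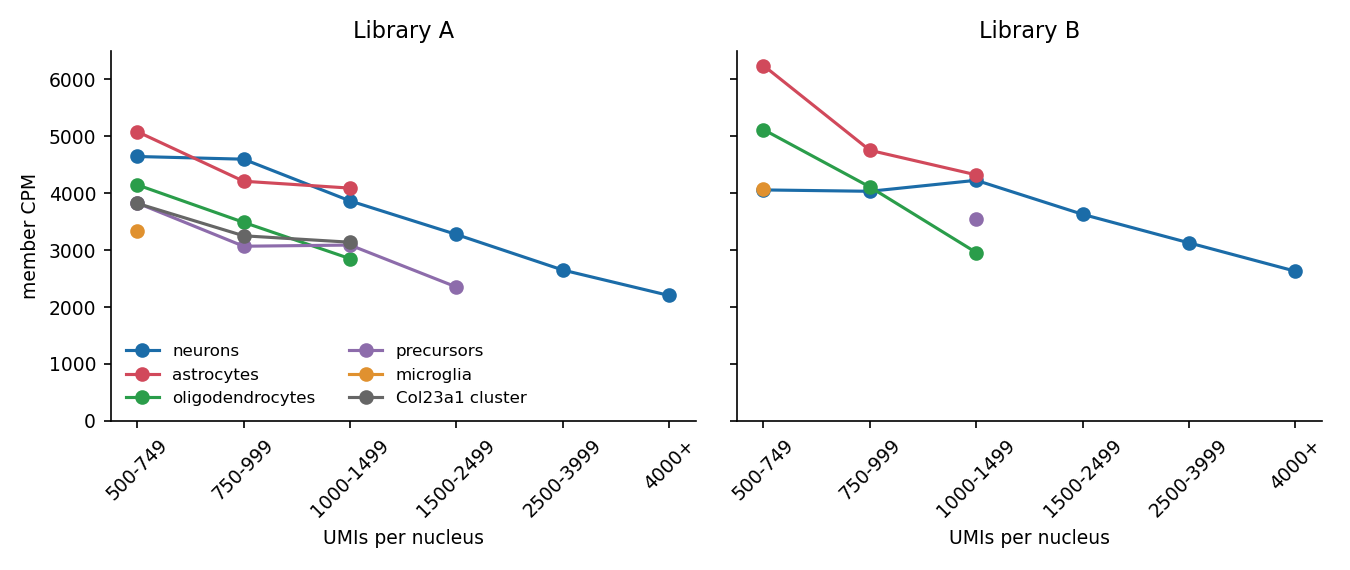
Summed member CPM by bins of UMIs per nucleus, in library A (left) and library B (right); each point is the sum over at least 20 nuclei of a class. In neurons of library A the level goes from 4643 to 2202 CPM between the lowest and the highest bin.

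The decline with depth was wide but did not take in every member. Neurons with 2500 or more UMIs (1225 nuclei of A, 779 of B) were set beside neurons with 500 to 1500 UMIs (702 and 190). Both deep values lay below both shallow values for 54 of the 85 members (63.5%), against 20.1% of the 17281 genes with 10 or more UMIs, and both lay above for 2 members against 16.3% of genes. By role, the 54 were 13 of 17 ATP synthase genes, 12 of 15 of complex IV, 23 of 37 complex I subunits, 4 of 8 of complex III and 2 of 8 assembly factors. Ndufa4, an early complex I label now placed with complex IV, had 135 and 112 CPM in shallow neurons and 52.7 and 46.3 in deep ones. Cox4i1 had 109 and 112 in shallow and 61.5 and 53.1 in deep neurons. Ndufs3, a core subunit of the complex I matrix arm, overlapped, with 132 and 70.3 in shallow and 94.2 and 67.6 in deep neurons. Ndufaf2, an assembly factor that acts late in complex I formation, also overlapped, with 63.8 and 56.2 against 54.5 and 61.2. Ribosomal protein genes, measured the same way in library A neurons, went from 4055 CPM in the lowest bin to 1238 in the highest. The parts of depth and of neuron cluster in the class differences below were not tested. Values in nuclei of 500 to 1500 UMIs are given beside them.

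Class differences were tested on UMIs summed by library and class, with edgeR's quasi-likelihood test and Benjamini-Hochberg adjustment over the 6059 genes tested. Each named class was set against the mean of the other 4 named classes, and the Col23a1 cluster against the mean of the 5. Only 40 of the 85 members passed the filter on low counts. A member could pass through the class in which it was high, so counts among these 40 describe the tested genes and not the whole list. In neurons, 2 members were called higher (28.1% of all genes tested) and 3 lower (14.8%, and 42.9% in either direction). In astrocytes, 6 were called higher (19.4% of genes, with 6.5% lower and 25.9% in either direction). In oligodendrocytes, 7 were called higher (18.8%) and 1 lower (16.3%, and 35.2% in either direction). Atp5h, counted as higher in astrocytes and in oligodendrocytes, and Atp5k, counted in oligodendrocytes, had no UMI in microglia, so their differences from a mean that includes microglia have no usable size. In precursors, 1 was called higher (15.8%, with 3.12% lower and 18.9% in either direction), and in microglia 1 was called lower (9.82%, with 12.2% higher and 22% in either direction). The median log2 difference of the 40 was -0.23 in neurons, 0.67 in astrocytes and 0.31 in oligodendrocytes, beside 0.16, 0.11 and -0.05 over all genes tested. With no filter, over all 85 members, the neuron median turned to 0.12 beside 0.98 over all genes, and those in astrocytes and oligodendrocytes were 0.66 and 0.48. In nuclei of 500 to 1500 UMIs, 37 members were tested and the neuron median was 0.20 beside 0.21 over all genes, so the lower neuron median was not seen there. The astrocyte median was 0.66 beside 0.06. No member was called in the Col23a1 cluster (11.9% of genes higher, 3.56% lower and 15.5% in either direction) by edgeR or DESeq2, and 3 had an unadjusted p under 0.05.

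Among complex I core subunits, oligodendrocytes had little Ndufs3. Its level was 40.1 and 23.2 CPM in oligodendrocytes of libraries A and B (11 and 5 UMIs), against 104 and 68.5 in neurons, 107 and 85.8 in astrocytes, 123 and 61.1 in precursors and 151 and 92.1 in microglia. Both oligodendrocyte values lay below every other class value. The log2 difference from the mean of the other classes was -1.48 (SE 0.37, adjusted p = 0.00138), and in the 500 to 1500 UMI window it was -1.46 (adjusted p = 0.00109). Ndufs3 overlaps Kbtbd4 on the opposite strand, and whether counting used strand is not stated. Ndufs7, which holds the last iron-sulfur cluster before ubiquinone, went the other way, with 80.2 and 65.0 CPM in oligodendrocytes (22 and 14 UMIs) against 23.7 and 31.0 in neurons and 42.7 and 57.2 in astrocytes. Its log2 difference in oligodendrocytes was 1.65 (SE 0.43, adjusted p = 0.00244). It did not pass the filter in the window, nor with the set-apart cluster added. Thus 2 core subunits of complex I differed in opposite directions in the same class.

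Ndufs1 and Ndufs4 were the most counted members, and neither was called in any of the 6 classes against the mean of the others. Ndufs1 had 168 and 120 CPM in neurons, 235 and 194 in astrocytes and 230 and 139 in oligodendrocytes. Ndufs4 had 84.9 and 106 CPM in neurons, 110 and 97.2 in astrocytes and 47.4 and 74.3 in oligodendrocytes. Ndufs1 was lower in neurons than in astrocytes in the direct comparison, by -0.60 (SE 0.24, adjusted p = 0.0398), and by -0.64 in the window (adjusted p = 0.0323).

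Of the accessory subunits of complex I, Ndufa13, also known as GRIM-19, was higher in astrocytes and in oligodendrocytes. It had 67.1 and 114 CPM there, 72.9 and 83.5 in oligodendrocytes, 45.2 and 61.1 in precursors, 22.6 and 42.4 in neurons and 16.8 and 30.7 in microglia, the last from 1 UMI in each library. Astrocytes and oligodendrocytes overlapped each other and lay above both neuron values. The astrocyte difference was 1.23 (SE 0.37, adjusted p = 0.0101) and was again 1.23 in the 500 to 1500 UMI window (adjusted p = 0.00768). The oligodendrocyte difference was 1.04 (SE 0.38, adjusted p = 0.0285), and it was not called in the window, by DESeq2, with no filter or with no library term. Ndufa13 overlaps Yjefn3 on the same strand, so its count is uncertain. Ndufc2, a membrane-arm accessory subunit, had 94.5 and 109 CPM in astrocytes and 59.0 and 52.9 in neurons. It was called in astrocytes at 0.81 (SE 0.31, adjusted p = 0.0484) in the main test and in 5 of 10 other settings. In the window it was 0.71 and not called (adjusted p = 0.107). Its difference of neurons from astrocytes moved from -0.86 (adjusted p = 0.00965) to -0.18 in the window (adjusted p = 0.696). Ndufa7 was called lower in neurons at -0.78 (SE 0.30, adjusted p = 0.0376), with 24.4 and 33.4 CPM against 54.7 and 65.0 in oligodendrocytes. In the window its neuron values were 37.8 and 122 CPM and the difference turned to 0.20 (adjusted p = 0.736), so this call did not hold at closer depth. It was also lost with no filter, with no library term, with the transplanted-labelled files and with the set-apart cluster added.

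Of the 8 assembly factors of complex I, 3 were tested. In neurons 2 were called higher (28.1% of all genes tested), and in oligodendrocytes 1 (18.8%). Summed over all 8, the level was 257 and 249 CPM in neurons, 186 and 252 in astrocytes and 259 and 260 in oligodendrocytes. Ndufaf4 was higher in neurons than in the mean of the other classes by 0.96 (SE 0.29, adjusted p = 0.00635), and by 1.16 in the window (adjusted p = 0.0143). Its levels were 60.7 and 47.3 CPM in neurons, 54.9 and 51.5 in astrocytes, 29.2 and 13.9 in oligodendrocytes and 19.4 and 10.2 in precursors (3 and 1 UMIs). Neurons and astrocytes overlapped, and both lay above both values of oligodendrocytes and of precursors. Ndufaf7, a methyltransferase for a complex I core subunit, was called higher in neurons by 0.75 (SE 0.28, adjusted p = 0.0308), with 85.8 and 63.9 CPM against 33.5 and 62.9 in astrocytes and 58.4 and 55.7 in oligodendrocytes. It was 0.85 in the window (adjusted p = 0.0271). DESeq2 did not call it (0.67, adjusted p = 0.251), and it was also lost with no library term. Ndufaf2 was higher in oligodendrocytes, with 131 and 111 CPM against 55.1 and 61.2 in neurons and 51.8 and 85.8 in astrocytes. Its difference in oligodendrocytes was 0.91 (SE 0.28, adjusted p = 0.00927), and 0.83 in the window (adjusted p = 0.0209). With the set-apart cluster added to oligodendrocytes it was 0.60 and not called (adjusted p = 0.102). Ndufaf2 is the longest member gene at 156 kb and overlaps B230220B15Rik and Smim15 on the opposite strand.

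**Figure D3:**
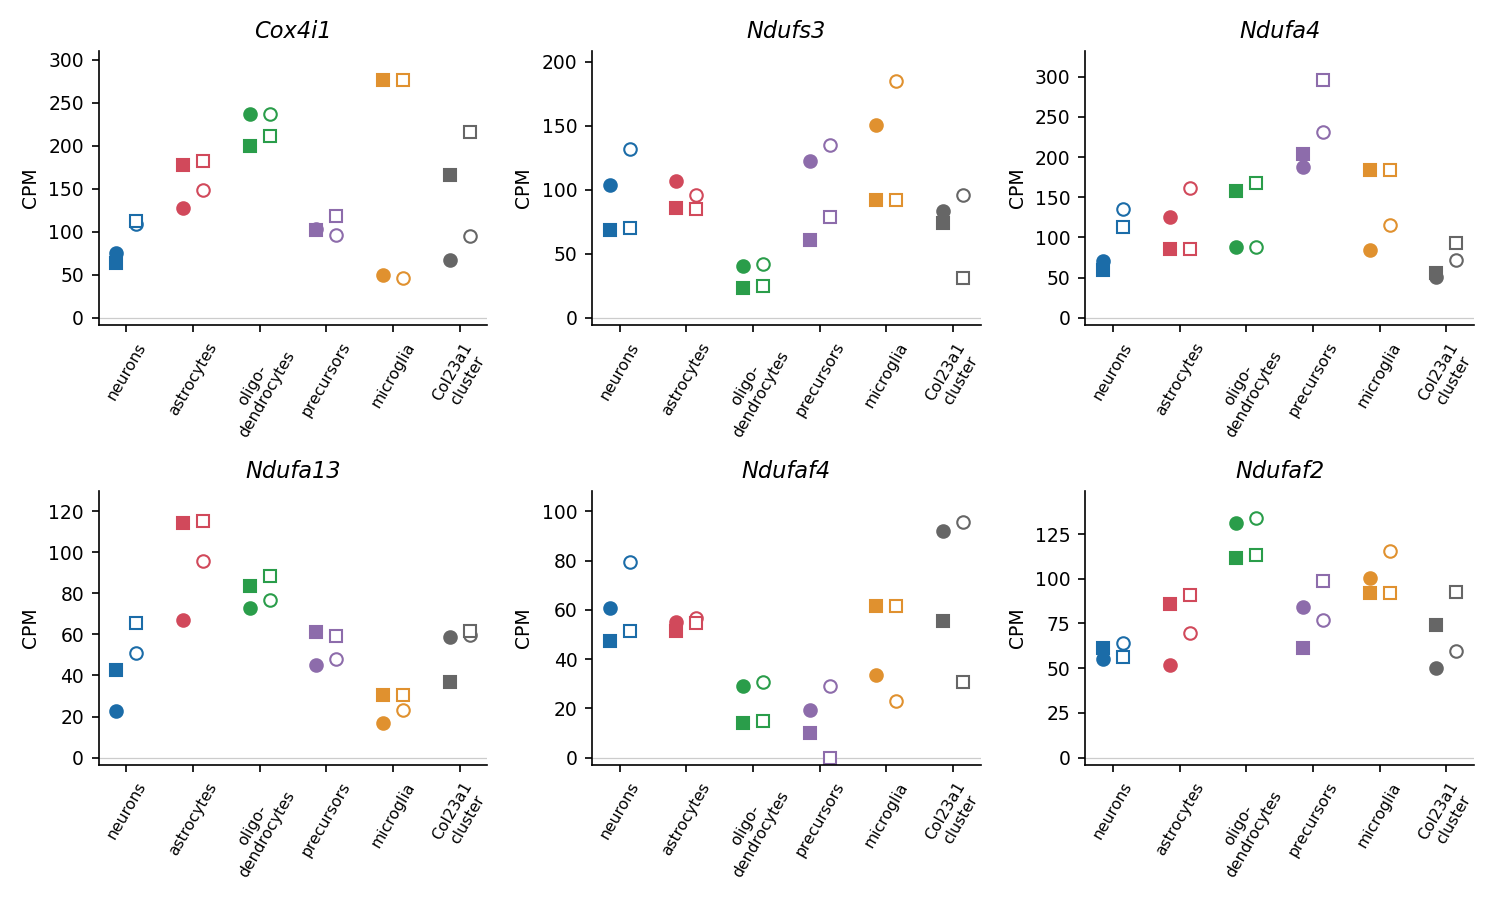
CPM of 6 members by class; circles are library A and squares library B, filled for all nuclei and open for nuclei with 500 to 1500 UMIs. Ndufs3 is low in oligodendrocytes at 40.1 and 23.2 CPM with all nuclei, while Cox4i1 is high there at 237 and 200.

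Of the 8 complex III members, 3 were tested. The core proteins Uqcrc2 and Uqcrc1 had 560 and 498 UMIs over both libraries. Uqcrc2 had 38.3 and 47.1 CPM in neurons, 45.7 and 74.4 in astrocytes and 18.2 and 37.1 in oligodendrocytes, and was not called in any of the 6 classes. Uqcrc1 did not pass the filter. Uqcrb, a small subunit near the ubiquinone site, was lower in neurons than in astrocytes by -1.08 (SE 0.40, adjusted p = 0.0289), but its single values overlapped, with 23.0 and 34.4 CPM in neurons against 67.1 and 34.3 in astrocytes. It was also lower than in oligodendrocytes (32.8 and 83.5 CPM), by -1.04 (SE 0.41, adjusted p = 0.0317). In the window these differences were -0.48 (adjusted p = 0.423) and -0.31 (adjusted p = 0.616). Uqcrq, another small subunit, had 28.3 and 36.6 CPM in neurons and 42.7 and 85.8 in astrocytes, a difference of -0.94 (SE 0.35, adjusted p = 0.0296). It did not pass the filter in the window.

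In complex IV, Cox4i1, the regulatory subunit that binds ATP, was high in oligodendrocytes. It had 237 and 200 CPM there (65 and 43 UMIs), 128 and 177 in astrocytes, 103 and 102 in precursors and 74.8 and 63.7 in neurons. Microglia had 50.3 and 276 CPM from 3 and 9 UMIs, which is too wide to place. The oligodendrocyte difference was 1.17 (SE 0.26, adjusted p = 0.00033), and 1.02 in the window (adjusted p = 0.000197). In neurons the difference was -0.97 (SE 0.23, adjusted p = 0.000707), and in the window it shrank to -0.37 (adjusted p = 0.261). Cox4i1 overlaps Gm20388 on the same strand and Emc8 on the opposite strand. Ndufa4 was higher in oligodendrocyte precursors, with 187 and 204 CPM (29 and 20 UMIs) against 87.5 and 158 in oligodendrocytes, 125 and 85.8 in astrocytes and 70.0 and 59.0 in neurons. Both precursor values lay above both values of each of the other 4 named classes. The precursor difference was 1.06 (SE 0.31, adjusted p = 0.0109), and 0.99 in the window (adjusted p = 0.012). Its lower level in neurons, by -0.94 (SE 0.22, adjusted p = 0.000651), was -0.19 in the window (adjusted p = 0.592).

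For ATP synthase, members were called higher in astrocytes and in oligodendrocytes, and 1 lower in microglia. Atp5b, the catalytic beta subunit, had 131 and 143 CPM in astrocytes, 102 and 125 in oligodendrocytes and 76.9 and 71.9 in neurons. Its astrocyte difference was 0.77 (SE 0.27, adjusted p = 0.033), and 0.88 in the window (adjusted p = 0.0126). From the transplanted-labelled files of the same nuclei it was 0.45 and not called (adjusted p = 0.239), and DESeq2 did not call it either. Atp5md, a small subunit of the membrane part, had 61.0 and 91.5 CPM in astrocytes, 51.1 and 69.6 in oligodendrocytes, 30.8 and 47.1 in neurons and 19.4 and 10.2 in precursors, the last from 3 UMIs and 1 UMI. Its astrocyte difference was 1.20 (SE 0.40, adjusted p = 0.0226), and 1.28 in the window (adjusted p = 0.0165). With no library term it was 1.18 and not called (adjusted p = 0.0938). Atp5c1, the gamma subunit of the rotor, was called in astrocytes at 0.93 (SE 0.32, adjusted p = 0.03) but not in the window (0.82, adjusted p = 0.0772), by DESeq2, with no filter, with no library term or with the set-apart cluster added. Atp5h, the d subunit of the peripheral stalk, had 54.7 and 74.3 CPM in oligodendrocytes, 45.7 and 68.6 in astrocytes and 24.8 and 35.1 in neurons. No Atp5h UMI was seen in microglia, where a count of 0 allows up to 50.3 and 92.1 CPM, above the neuron levels. The call of Atp5h as lower in microglia (adjusted p = 0.0147) therefore has no usable size, and the fitted differences of Atp5h in the other classes against a mean that includes microglia are not given. Atp5k, the e subunit, had 29.2 and 88.2 CPM in oligodendrocytes, 21.4 and 39.8 in neurons and 18.3 and 80.1 in astrocytes, and was called higher in oligodendrocytes (adjusted p = 0.0238), again against a mean with no UMI in microglia. Against neurons directly it was not called (-0.96, SE 0.42, adjusted p = 0.0523). In all, 9 of the 85 members had no UMI in the 66 and 47 microglial nuclei.

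The genes Atp5g1, Atp5g2 and Atp5g3 code for the same mature c subunit of the proton ring, from different precursors. Atp5g3 had 62.7 and 69.5 CPM in neurons, 51.8 and 80.1 in astrocytes and 40.1 and 32.5 in oligodendrocytes. Atp5g2 had 49.6 and 39.8 in neurons, 85.4 and 74.4 in astrocytes and 62.0 and 32.5 in oligodendrocytes. Atp5g1 had 32.0 and 49.5 in neurons, 51.8 and 62.9 in astrocytes and 51.1 and 65.0 in oligodendrocytes. Of the 3, Atp5g2 was called lower in neurons than in astrocytes, by -0.86 (SE 0.29, adjusted p = 0.0168). In the window its difference was -0.58 (adjusted p = 0.228). Atp5g3 was not called between neurons and oligodendrocytes in the main test, but it was in the window and with no filter. Both of its neuron values above lay over both oligodendrocyte values. Near-identical copies of such genes exist, and counts split between copies would make these values uncertain.

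Set directly against astrocytes, 21 tested members were lower in neurons (21.9% of all genes tested were lower, 21.3% higher and 43.3% either). Against oligodendrocytes, 14 were lower (23.9%) and 2 higher (27.8%, and 51.6% either). The 2 higher were Ndufs3 by 1.38 (SE 0.35, adjusted p = 0.00106) and Ndufaf4 by 1.24 (SE 0.42, adjusted p = 0.0126). The largest difference among the 14 was in Cox4i1, at -1.71 (SE 0.25, adjusted p = 3.41e-07). In the 500 to 1500 UMI window, 37 members were tested among 5319 genes. Against astrocytes, 3 members were lower and 0 higher in neurons, beside 1173 of all genes tested lower and 1253 higher. Against oligodendrocytes, 2 members were lower and 3 higher, beside 1171 of all genes tested lower and a larger number higher. Cox4i1 stayed lower against oligodendrocytes at -1.11 (adjusted p = 7.77e-05), as did Ndufaf2 at -1.12 (adjusted p = 0.00181). Ndufa13 stayed lower against astrocytes at -0.97 (adjusted p = 0.0229), as did Atp5b at -0.77 (adjusted p = 0.0225). Ndufa4, by contrast, moved from -0.80 to -0.08 against astrocytes and from -0.94 to -0.05 against oligodendrocytes.

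**Figure D4:**
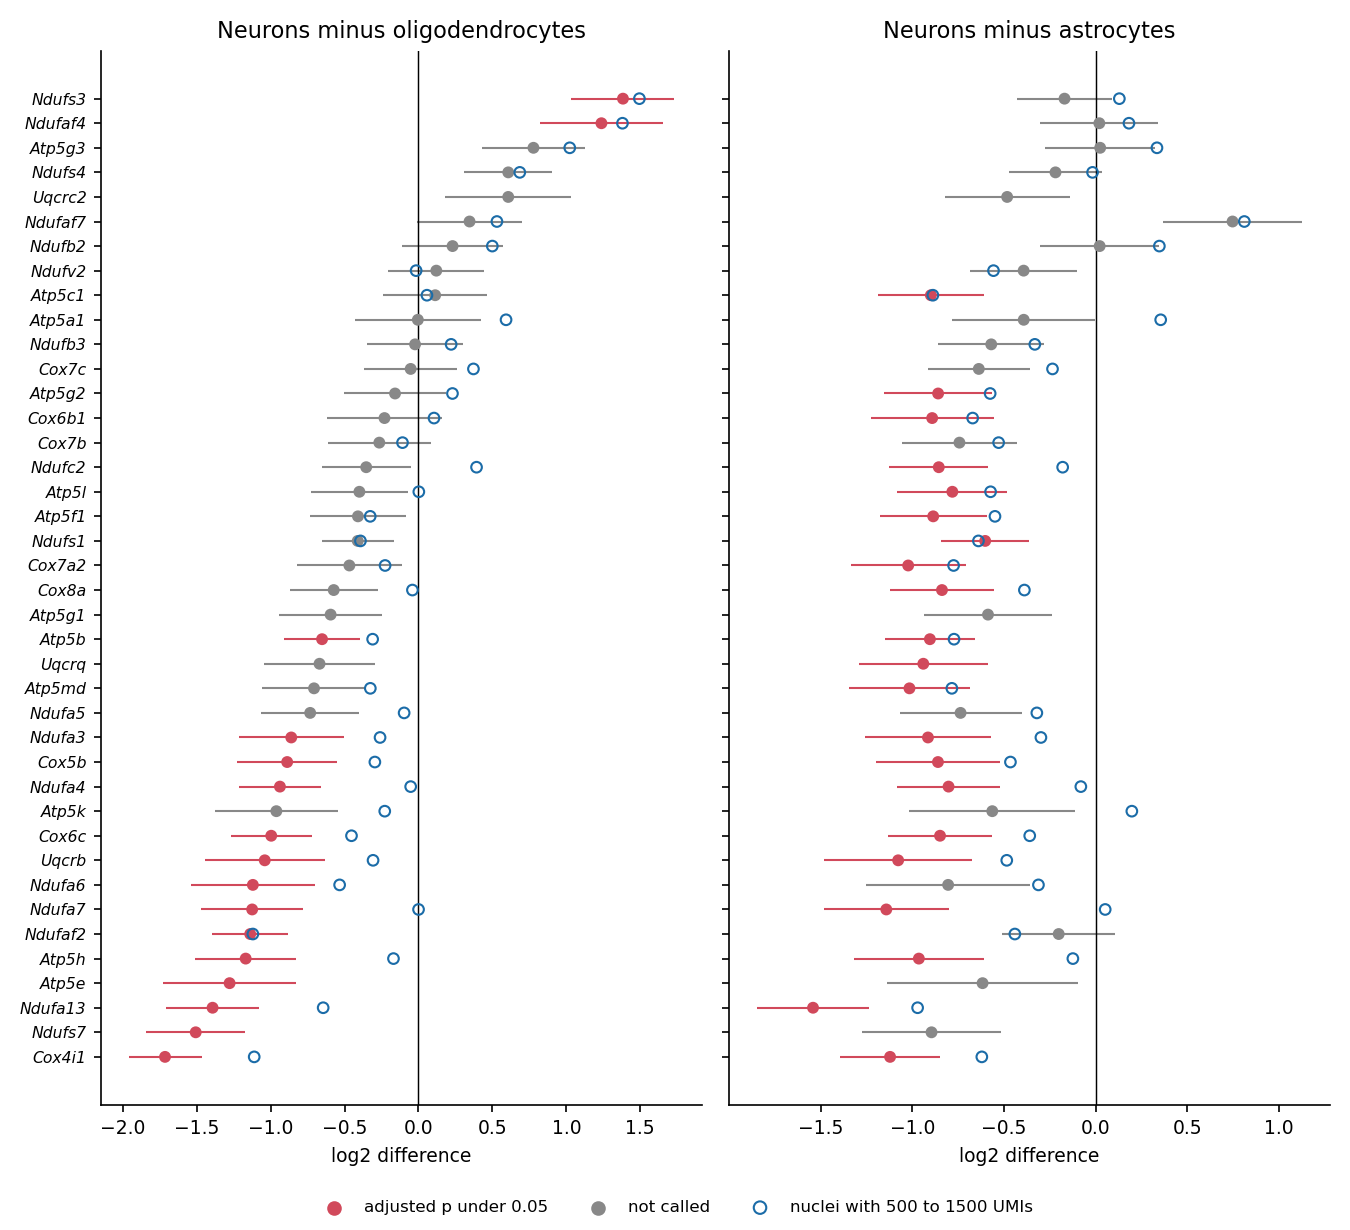
Log2 difference of the 40 tested members between neurons and oligodendrocytes (left) and neurons and astrocytes (right); filled points with bars are estimates ± SE, red where the adjusted p is under 0.05, and open circles are estimates in nuclei of 500 to 1500 UMIs. Against oligodendrocytes, Cox4i1 is lowest at -1.71 and Ndufs3 highest at 1.38, and their open circles lie at -1.11 and 1.49.

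Without any filter on low counts, all 85 members can be placed by whether the 2 libraries of a class lay wholly outside those of neurons. For astrocytes, 46 members (54.1%) lay above neurons, against 21.5% of 17281 genes, and 6 lay below, against 40.7%. For oligodendrocytes, 44 (51.8%) lay above, against 20.1%, and 11 (12.9%) below, against 47.5%. In the 500 to 1500 UMI window, 21 members (24.7%) lay above in astrocytes against 18.2% of genes, and 15 (17.6%) above in oligodendrocytes against 16.9%. In the window, 10 members lay below in astrocytes, where 31.4% of genes did, and 20 (23.5%) in oligodendrocytes, where 34.9% did. At closer depth the share of members above neurons was thus near the background in oligodendrocytes.

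Among neurons, 7 clusters were large enough in both libraries to give a level. The cluster led by Trh, Slc32a1 and Vstm2l had the highest member CPM, at 3698 and 3986. The other 6 clusters ranged from 2482 to 2852 in library A and from 2913 to 3177 in library B. The Trh cluster also had the lowest median depth, 1502.5 UMIs, against 1665.5 to 3192 in the others, and the highest ribosomal protein level, 2476 and 3485 CPM. The cluster led by 9330185C12Rik and Vipr2 had a median of 1665.5 UMIs and a member level of 2751 and 3177, within the range of the deeper clusters. Without the Trh cluster, 7 of 39 tested members were called lower in neurons, beside 902 of all 6051 genes tested. With it, 3 of 40 were, beside 895 of 6059. The parts of depth and of ribosomal protein RNA in the level of the Trh cluster were not tested.

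**Figure D5:**
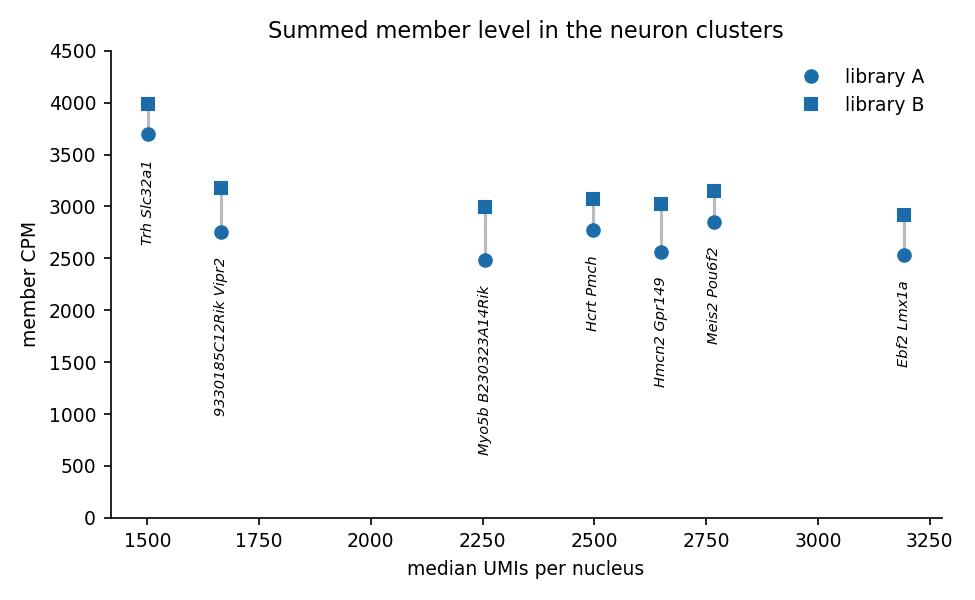
Summed member CPM of the 7 neuron clusters against their median UMIs per nucleus, labelled by 2 leading genes; circles are library A and squares library B. The Trh cluster, at 1502.5 UMIs, lies above the others at 3698 and 3986 CPM.

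Library B gave higher member levels than library A in all 6 classes. In neurons, 65 of the 85 members had a higher CPM in library B, and in microglia 44 did. Ribosomal protein RNA moved the same way, with 1809 CPM in neurons of library A and 2643 in library B, as did Malat1 (18217 and 36695). Ndufs1 and Ndufs3 went against this, with 168 and 104 CPM in neurons of library A against 120 and 68.5 in library B. What sets the libraries apart was not tested. Library was a term in the fit.

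Other genes of energy metabolism were counted in the same fit. Of 13 mitochondrial-coded subunits, mt-Co1, a catalytic subunit of complex IV, passed the filter. It was lower in neurons by -1.34 (SE 0.25, adjusted p = 2.83e-05), with 259 and 205 UMIs in neurons and 34 and 31 in astrocytes, at 104 and 177 CPM in the latter. In the window the difference was -0.62 and not called (adjusted p = 0.062). Against astrocytes alone, mt-Co1 was lower in neurons by -1.74 (adjusted p = 3.37e-06), and by -1.09 in the window (adjusted p = 0.00154). This RNA is coded in mitochondrial DNA, so its counts do not measure transcripts made in the nucleus. How it came to be counted with the nuclei was not tested. Mitochondrial-coded RNA moved with depth in library A neurons, from 284 CPM in the lowest bin to 57.4 in the highest, and in library B from 108 to 104 with a highest value of 444 between. Of 12 citric acid cycle genes, 6 were tested and 4 were higher in astrocytes (19.4% of all genes tested). Among them were Cs (citrate synthase), by 1.30, and Idh3b, by 1.12, with 1.25 and 1.10 in the window. Idh3b was also higher in neurons, by 0.87 (adjusted p = 0.000758), and by 0.91 in the window (adjusted p = 0.000784). Directly against astrocytes, its neuron difference was -0.20 and not called (adjusted p = 0.545). Of 17 glycolysis genes, 12 were tested and 6 were higher in astrocytes (19.4% of all genes tested). Among them were Gapdh, by 0.89, and Eno1, by 1.07, with 0.90 and 1.18 in the window. Neurons had 3 called higher (28.1% of all genes tested) and 1 lower (14.8%). In the window, 6 of 10 tested were called higher in neurons and 6 in astrocytes, beside 1575 and 1186 of all 5319 genes tested. Against astrocytes directly, neurons had 1 higher and 5 lower (21.3% and 21.9% of all genes tested). In the window they had 1 higher and 3 lower, beside 1253 and 1173 of all 5319 genes tested. Gapdh in neurons differed from astrocytes by -0.81 (adjusted p = 0.00346), and by -0.18 in the window (adjusted p = 0.57). In oligodendrocytes, 3 glycolysis genes (Eno1, Pfkm and Pfkp) were called lower, beside 16.3% of all genes tested. The calls rested on 5 and 4 UMIs of Eno1, 3 and 2 of Pfkm and 1 and 1 of Pfkp. In the window Pfkp was not called. Of 85 ribosomal protein genes, 46 were tested, 15 were lower in neurons (14.8% of all genes tested) and 10 higher in oligodendrocytes (18.8%). In the window, of 40 tested, 1 was called higher in neurons and 1 higher in oligodendrocytes. All genes called higher there were 1575 and 1126 of 5319.

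Of 13 regulators of mitochondrial gene expression, 4 were tested. Ppargc1a, which codes for the coactivator PGC-1α, had 451 and 263 CPM in astrocytes, 97.1 and 74.9 in neurons, and 2 UMIs and none in oligodendrocytes of libraries A and B. Neurons were lower than astrocytes by -2.10 (SE 0.21, adjusted p = 2.01e-10), and by -2.64 in the window. Against the mean of the other classes, which includes the oligodendrocytes, neurons were called higher, by 1.21 (SE 0.32, adjusted p = 0.00234). In the window that difference was 2.01 (adjusted p = 0.00703). Esrrg, an orphan nuclear receptor that works with PGC-1α, was higher in neurons by 1.95 (SE 0.22, adjusted p = 4.82e-09) and in astrocytes by 2.02 (SE 0.27, adjusted p = 1.94e-07), with 2.07 and 2.02 in the window. It was called lower in oligodendrocytes, where each library held 3 UMIs (adjusted p = 1.24e-06). Nrf1, whose letters were counted in the promoters above, was lower in neurons by -0.76 (SE 0.19, adjusted p = 0.000985), and by -0.80 in the window. Of 27 other assembly factors, 5 were tested. Ttc19, which acts in complex III, was higher in neurons by 1.11 (SE 0.22, adjusted p = 0.000102), and by 1.41 in the window. In astrocytes Ttc19 differed by 0.75 and was not called (adjusted p = 0.0816), but it was called in the window (1.07, adjusted p = 0.0131). Neurons and astrocytes differed directly by 0.29 (adjusted p = 0.403), and by 0.27 in the window (adjusted p = 0.49). Of 10 genes of complex II and cytochrome c, 3 were tested. Sdha, the catalytic subunit of complex II, had 84.7 and 94.6 CPM in neurons, 82.3 and 120 in astrocytes and 83.9 and 74.3 in oligodendrocytes, and its neuron difference was 0.02 (SE 0.21, adjusted p = 0.976).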

How the data were processed

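Single-nucleus RNA was captured with 10x Chromium 3′ chemistry in 4 samples. Per the submitters' processing notes the authors used Cell Ranger 5.0.1, and the deposited values are raw UMI counts per gene and barcode. Those notes name a human build although the gene IDs are mouse, and intron counting, strand use and barcode filtering are not given in the sources used here. Nuclei with 300 or more genes and at most 5% mitochondrial RNA were clustered with scanpy 1.11.5 without the members (3000 variable genes, 40 components, 20 neighbours, resolution 1). Classes needed 3 fixed markers among 10 leading genes, and neurons 6 of 12 markers over 2-fold. The design foresaw a tanycyte class that the markers did not support. A cluster of 34 and 14 nuclei with oligodendrocyte and neuron markers was set apart by a rule chosen after seeing the data. Counts were summed by library and class and fitted in edgeR 4.0.16 (R 4.3.3) with class and library terms, TMM scaling and the low-count filter, at an adjusted p of 0.05. DESeq2 1.42.0 was an alternative. The fits were tested on simulated data. Named members were the 2 most counted of each role, up to 3 called per direction in each class by smallest p with the same sign in each library, and listed isoforms. Uqcrb, Uqcrq, Ndufc2 and Atp5k were named after their values were seen, and depth-window values of genes outside the member list were added after seeing the data. Members and lists were chosen with earlier results of these data known. The library term pairs classes because all classes of a library come from the same sample. How the animals coded in the title of library A were combined is not stated.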

Additional observations from a re-analysis of the deposited data

How the results depend on the processing

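Of 160 recomputed counts of called members, 130 stayed within 1.5 times the reported count. With no low-count filter, 85 members and 23810 genes were tested, and in the 500 to 1500 UMI window 37 and 5319. RLE size factors, DESeq2 and no replicate block (no library term) had 40 and 6059. The transplanted-labelled files gave 41 and 6042, and keeping the set-apart cluster 37 and 5992. Leaving out the Trh cluster gave 39 and 6051. Members called higher in neurons (2 as reported) were 8 with no filter, 1 with DESeq2 and 1 with no replicate block. All genes so called were 4332, 1325 and 1298. Members called lower in neurons (3) were 6 with RLE size factors, 5 with the transplanted-labelled files, 0 in the window and 7 without the Trh cluster. All genes called lower were 944, 888, 589 and 902. Members higher in astrocytes (6) were 2 with DESeq2 and 1 with no replicate block, beside 1080 and 988 of all genes. Members higher in oligodendrocytes (7) were 4 with DESeq2, 4 with no replicate block, 3 in the window and 3 with the set-apart cluster kept. Over all genes these counts were 1032, 980, 1126 and 958. Members lower in microglia (1) were 2 with no filter and 2 in the window, beside 638 and 873 of all genes. Lower in the Col23a1 cluster (0) was 1 member with the transplanted-labelled files, beside 209 of all genes. Neurons against oligodendrocytes, higher (2), gave 4 with no filter, 1 with DESeq2 and 1 with the set-apart cluster kept. Over all genes these were 2981, 1407 and 1504. Lower (14) gave 9 with no filter, 7 with DESeq2, 7 with no replicate block, 2 in the window and 9 with the set-apart cluster kept. The counts over all genes were 1515, 1236, 1128, 1171 and 1207. Neurons against astrocytes, higher (0), gave 2 with no filter and 1 with the transplanted-labelled files, beside 2240 and 1270 of all genes. Lower (21) gave 2 with no filter, 5 with DESeq2, 4 with no replicate block and 3 in the window. The counts over all genes were 1517, 1164, 1042 and 1173. Of 96 recomputed medians of the tested members, 30 moved. Ndufa7 reversed in the window, to 0.2041 in neurons, 0.052 against astrocytes and 0.0004 against oligodendrocytes. The causes were not tested. Of 2080 recomputed values of named members, 1910 kept their direction and side of the threshold, 86 lost a call and 18 gained one. Removing 1 of the 2 libraries leaves no residual degrees of freedom, so those are values with no test. Neurons without mixed clusters could not be run because 0 neuron clusters were mixed. Keeping the set-apart cluster and leaving out the Trh cluster were alternatives chosen after seeing the data. Depth limits microglia most, with 66 and 47 nuclei.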

Other observations

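A small unnamed cluster led by Avp, Oxt, Caprin2 and Sim1, with 28 and 23 nuclei in libraries A and B, had a summed member level of 2283 and 2641 CPM. The set-apart cluster with oligodendrocyte and neuron markers, with 34 and 14 nuclei, had 3083 and 3128 CPM.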
